A study of Mus musculus with 12 samples.

Results

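The voltage-gated sodium and calcium channel genes were taken from the array by symbol, as every gene named Scn with digits and a or b and every gene whose name begins with Cacn. This gave 32 of the 18097 genes on the array, read by 54 of its 25697 probes. For the 12 genes with several probes, the probe brightest on average across the 12 arrays stood for the gene. The rule itself used no difference between groups, but it was chosen with earlier results of these data known. The genes comprised 7 sodium channel pore subunits, 4 sodium channel beta subunits, 7 calcium channel pore subunits, 2 alpha2delta subunits, 4 calcium channel beta subunits and 8 gamma subunits, several of which are transmembrane AMPA receptor regulatory proteins (TARPs).

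RNA from the hippocampus and from the cortex of male 3×TgAD mice was measured on Illumina mouse BeadChips, with 3 arrays of AMI (amitriptyline) and 3 of vehicle in each tissue. AMI was given in drinking water at 100 µg per g of body weight for 4 months, from an age of 14 to 18 months, and vehicle mice drank plain water over the same ages. Mice of both treatments also received BrdU injections during the study, and all 12 arrays are of this genotype, which carries human APP and tau transgenes with a mutant presenilin 1, the transgenes being driven in neurons by Thy1 regulatory elements. The labels do not say which mouse gave which sample, so p-values measure the spread between these samples.

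Voltage-gated sodium channels open on depolarization and carry the rising phase of the action potential, and their beta subunits shape gating and the placement of the pore in the membrane. Voltage-gated calcium channels turn depolarization into calcium entry, which drives transmitter release, burst firing and activity-dependent transcription, and their alpha2delta and cytoplasmic beta subunits bring the pore to the surface. TARPs share ancestry with the calcium channel gamma subunit of muscle but mainly escort AMPA-type glutamate receptors to synapses. Amitriptyline, a tricyclic antidepressant, inhibits the reuptake of serotonin and noradrenaline and is also known to block voltage-gated sodium channels.

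The measurements rest on short probes, and those behind the largest tissue differences are given here by the first 30 of their 50 bases, 5′ to 3′, as the array annotation holds them. All 4 probes of Scn3b are shown because they gave different results.

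Scn4b, probe ILMN_2813547: tccaggaggcaccgacctgcacatgcccag
Cacng3, probe ILMN_2843891: gaccctgggcagagggactctaaaaagagc
Cacnb4, probe ILMN_3123491: ggctgttgatatcccaggctattcctgtgt
Cacna1h, probe ILMN_1246201: ccctccatcccaggctgtcaggctcagcgt
Cacng8, probe ILMN_2709881: cgtgaagatcaaccacttcccggaggacac
Scn3b, probe ILMN_1215136 (the chosen probe): agctgtgaacttggttactcggttgggcct
Scn3b, probe ILMN_1227604: acctgacttccggactctatcagaactcct
Scn3b, probe ILMN_3163577: acaccggccctttgtgaagaccacaagact
Scn3b, probe ILMN_2451346: gctgagaaagatagcagtgggcttaaaagt

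Between 49.0% and 51.7% of probes were detected per array (a detection p-value of 0.05 or less from the scanner software), and the median signal of undetected probes lay between 52.2 and 73.2. In the hippocampus the AMI and vehicle arrays numbered 1 deviated from their group means together (r = 0.61 across probes), so results were also computed with the replicate number as a block. The tissues carried their labels' markers. All 5 hippocampal identity genes were higher in the hippocampus, where their summed level was 4505 to 6905 in normalized signal units against 870 to 1107 in the cortex. Of 6 cortical identity genes, 5 were higher in the cortex and 1 in the hippocampus, with sums of 6696 to 8538 in the cortex against 2293 to 2852. In such bulk tissue, fewer cells of a type and less RNA per cell cannot be told apart.

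Of the 32 channel genes, 21 were detected on all 12 arrays, and 22 to 25 were detected on any given array. A further 3 genes were detected on some arrays and still reached the filter (3 or more of the 6 arrays in a tissue), among them Cacna1c on 4 hippocampal and 4 cortical arrays and Cacnb1 on 6 and 5. The other 8 genes were not tested. Their chosen probes gave signals of 45.0 to 106 on all arrays, in the range of undetected probes on many of them. Scn4a and Cacng1, known from skeletal muscle, Scn11a, of peripheral sensory neurons, Scn7a and Cacng6 were detected on 0 arrays. Scn10a, also of sensory neurons, was detected on 1 cortical array, and Cacna1f, the retinal L-type channel, on 1 hippocampal and 2 cortical arrays.

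The tissue comparison asked which channel genes differed between hippocampus and cortex over all 12 arrays at equal treatment. Levels are log2 signals scaled so that 0 is the mean of the array, and differences are hippocampus minus cortex. Scn4b was 6.19-fold and Cacng3 2.73-fold higher in the cortex, whereas Scn3b was 2.07-fold higher in the hippocampus, followed by Cacna1h, a T-type calcium channel, at 1.95-fold. By limma with Benjamini-Hochberg adjustment over 13677 probes, 9 of the 24 tested members (37.5%) were higher in the hippocampus at an adjusted p under 0.05, against 24.1% of all 10267 tested genes. In the cortex 5 members (20.8%) were higher, against 18.9% of genes. In either direction 14 members (58.3%) differed, against 43.0% of genes, and the 6 hippocampal and 6 cortical arrays did not overlap for 8 members (33.3%), against 22.9%. The median absolute difference was 0.31 for the members and 0.19 for all tested genes. Each tissue has its own table and its own version of the scanner software, so tissue, table and software cannot be told apart.

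**Figure D1:**
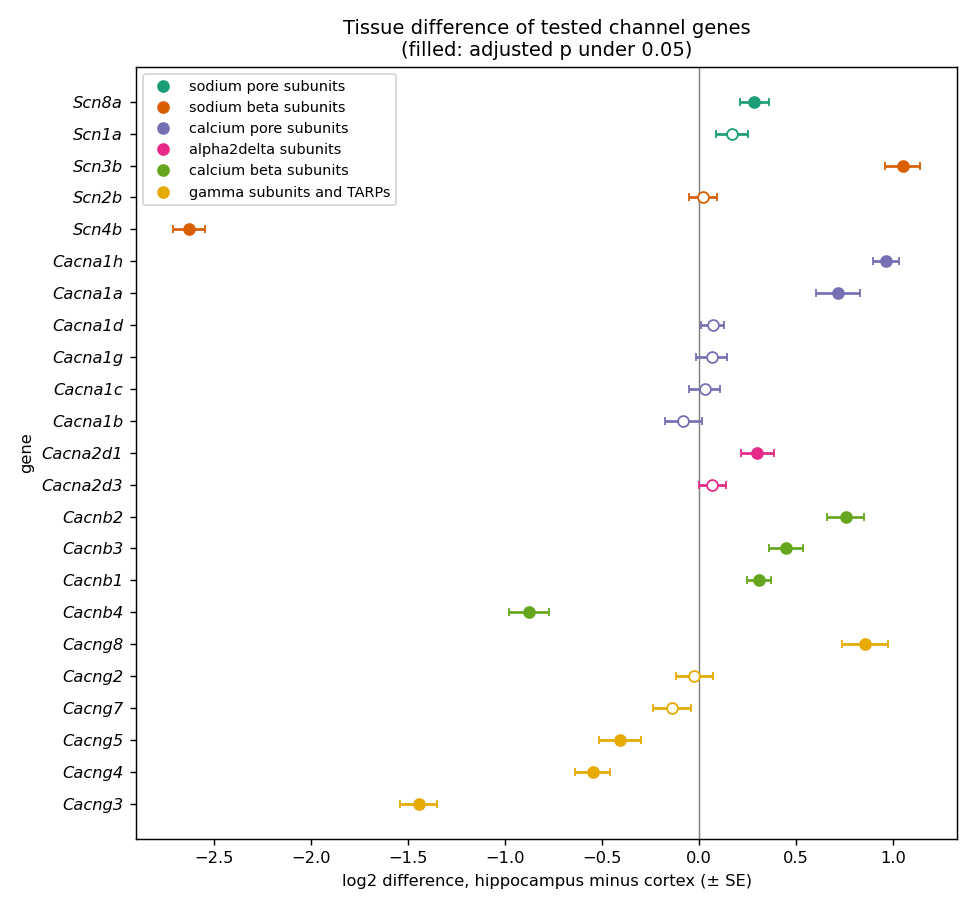
Difference in log2 level between hippocampus and cortex (x axis, with SE) for the tested channel genes reported here (y axis), coloured by subunit family and filled where the adjusted p was under 0.05. Scn4b lies farthest to the cortical side at -2.63, and Scn3b farthest to the hippocampal side at 1.05.

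Among sodium channel pore subunits, Scn8a, the main channel of the axon initial segment, was higher in the hippocampus. Its levels were 0.84, 1.11 and 1.23 (lowest, median and highest of 6) there and 0.70, 0.74 and 0.95 in the cortex, a difference of 0.29 (SE 0.07, adjusted p 0.00784 by limma). The lowest hippocampal array lay inside the cortical range, and the gene missed the threshold within either treatment (adjusted p 0.122 on vehicle and 0.0627 on AMI arrays). Scn1a, a channel prominent in fast-firing inhibitory neurons, differed by 0.17 (SE 0.08) and did not pass (adjusted p 0.113).

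Sodium channel beta subunits showed the widest spread of tissue differences of any family. Scn4b, which is known to promote the resurgent sodium current of fast-firing neurons and is abundant in the striatum, had levels of 0.44, 0.51 and 0.74 (lowest, median and highest) in the hippocampus against 3.02, 3.11 and 3.56 in the cortex. The ranges lay far apart, and the difference was -2.63 (SE 0.08, adjusted p 8.5e-10 by limma). Scn3b, a beta subunit of developing and adult neurons, had levels of 1.98, 2.14 and 2.31 in the hippocampus against 0.73, 1.13 and 1.26 in the cortex. Every hippocampal array was above every cortical array, with a difference of 1.05 (SE 0.09, adjusted p 2.33e-06). Scn2b, which links to the pore by a disulphide bond as Scn4b does, had hippocampal levels of 2.48 to 2.98 that enclosed the cortical ones of 2.68 to 2.80. Its difference was 0.02 (SE 0.07, adjusted p 0.839).

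Scn2b and Scn4b, with differences of 0.02 and -2.63, are neighbours on chromosome 9, with 0 protein-coding genes between them in RefSeq. The 250 bases before the start of each are printed from RefSeq on GRCm38.p6, plus strand, at chr9:45117626-45117875 for Scn2b and chr9:45138374-45138623 for Scn4b, because adjacent genes of the same family had such unlike tissue differences. CG dinucleotides, which read the same on both strands, are in capitals.

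Scn2b: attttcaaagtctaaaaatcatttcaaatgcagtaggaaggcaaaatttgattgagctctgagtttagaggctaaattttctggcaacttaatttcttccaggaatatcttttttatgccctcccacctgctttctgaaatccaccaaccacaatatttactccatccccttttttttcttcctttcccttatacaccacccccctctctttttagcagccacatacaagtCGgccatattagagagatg
Scn4b: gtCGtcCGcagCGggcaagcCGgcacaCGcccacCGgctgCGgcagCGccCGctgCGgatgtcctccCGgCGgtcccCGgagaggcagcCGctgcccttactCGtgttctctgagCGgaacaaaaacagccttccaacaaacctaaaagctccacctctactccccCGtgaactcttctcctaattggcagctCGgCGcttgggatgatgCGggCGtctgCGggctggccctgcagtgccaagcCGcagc

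The Scn4b window holds 23 CG dinucleotides and the Scn2b window 1. Over all 32851 RefSeq windows of this length the median was 6, with 13.3% holding 23 or more and 18.8% holding 1 or fewer, and over the 34 windows of the 24 members in that table it was 8. Other members also lie side by side. Cacng4 and Cacng5, adjacent on chromosome 11, were both higher in the cortex, whereas of the adjacent Cacng7 and Cacng8 on chromosome 7 only Cacng8 passed the test. The Cacng7 window holds 9 CG dinucleotides and the Cacng8 window 0. A relation between CG content and tissue difference was not tested.

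**Figure D2:**
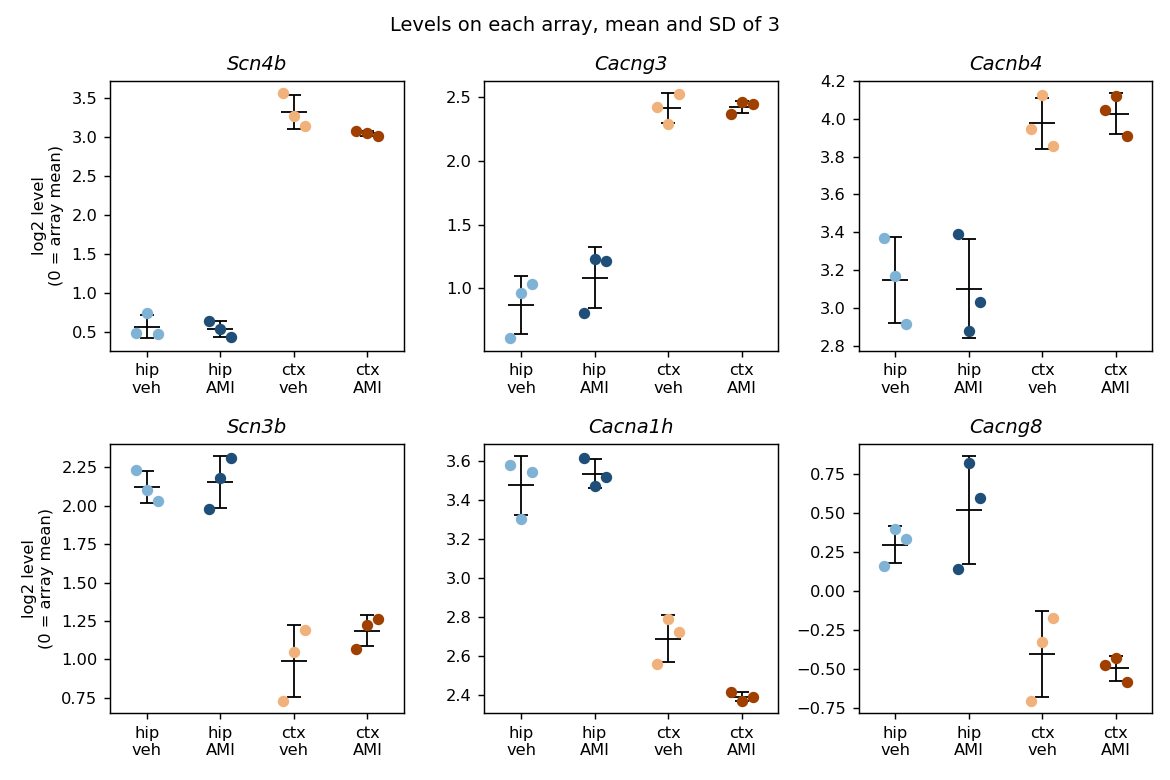
Log2 level (y axis, 0 is the array mean) on each array for 6 channel genes, by tissue (hip, hippocampus, and ctx, cortex) and treatment (veh, vehicle, and AMI), with the mean and SD of 3 arrays in black. Hippocampal and cortical points do not overlap in any of the 6 panels.

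Of the calcium channel pore subunits, Cacna1h and Cacna1a were higher in the hippocampus. Cacna1h, whose T-type current opens near the resting potential, had levels of 3.30, 3.53 and 3.62 (lowest, median and highest) in the hippocampus against 2.37, 2.49 and 2.79 in the cortex. The ranges did not overlap, and the difference was 0.96 (SE 0.07, adjusted p 6e-07 by limma). Cacna1a, the P/Q-type channel of presynaptic terminals, ranged from 1.04 to 1.16 around a median of 1.098 in the hippocampus. In the cortex it had a median of 0.27 and a range of 0.06 to 1.04. The highest cortical array, vehicle replicate 2, reached the hippocampal range and the others reached 0.44 at most, with a difference of 0.72 (SE 0.11, adjusted p 0.000277). It missed the threshold on the vehicle arrays alone (0.52, adjusted p 0.0822). Cacna1b (N-type), Cacna1c and Cacna1d (L-type) and Cacna1g (T-type) had differences between -0.08 and 0.07 and did not pass.

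Among accessory subunits of calcium channels, Cacna2d1, an alpha2delta subunit and the target of gabapentin, was higher in the hippocampus. Its levels were 2.57, 2.70 and 3.03 there against 2.26, 2.45 and 2.58 in the cortex, so the lowest hippocampal array just reached the cortical range. The difference was 0.30 (SE 0.08, adjusted p 0.0112 by limma), but it missed the threshold within either treatment (adjusted p 0.119 on vehicle and 0.0658 on AMI arrays). Cacna2d3, its relative, differed by 0.07 (SE 0.07, adjusted p 0.442).

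All 4 cytoplasmic beta subunits passed the test, in both directions. Cacnb2 had levels of 0.39, 0.74 and 0.80 in the hippocampus against -0.25, -0.14 and 0.19 in the cortex, a difference of 0.76 (SE 0.10, adjusted p 5.23e-05 by limma). Cacnb3 had levels of 3.00, 3.29 and 3.36 against 2.58, 2.74 and 3.06, a difference of 0.45 (SE 0.09, adjusted p 0.00119). Cacnb2 was separated by tissue on every array, while for Cacnb3 the highest cortical array passed the lowest hippocampal array, and its adjusted p was 0.0903 on the vehicle arrays alone. Cacnb1, best known from the muscle channel, had levels of -0.52, -0.35 and -0.26 against -0.77, -0.68 and -0.63. Its ranges did not overlap, its difference was 0.31 (SE 0.06, adjusted p 0.00158), and on the AMI arrays alone its adjusted p was 0.0527. Cacnb4, whose loss causes the lethargic mouse phenotype of ataxia and seizures, went the other way. Its levels were 2.88, 3.10 and 3.39 in the hippocampus against 3.86, 4.00 and 4.13 in the cortex, a difference of -0.88 (SE 0.10, adjusted p 2.63e-05) with no overlap.

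Of the 6 tested gamma subunits and TARPs, 3 were higher in the cortex and 1 in the hippocampus. Cacng3 (TARP gamma-3) had levels of 0.61, 0.997 and 1.23 in the hippocampus against 2.29, 2.43 and 2.53 in the cortex, a difference of -1.45 (SE 0.10, adjusted p 3.14e-07 by limma). Cacng8 (TARP gamma-8), the TARP known for its hippocampal abundance, had levels of 0.14, 0.36 and 0.82 against -0.71, -0.45 and -0.17. Both were separated by tissue on all arrays, in opposite directions, with a difference of 0.86 for Cacng8 (SE 0.12, adjusted p 9.7e-05). Cacng4 had levels of -0.45, -0.13 and 0.02 in the hippocampus against 0.01, 0.41 and 0.69 in the cortex, a difference of -0.55 (SE 0.09, adjusted p 0.000454). Cacng5 had levels of 0.79, 1.13 and 1.34 against 1.30, 1.48 and 1.74, a difference of -0.41 (SE 0.11, adjusted p 0.00886). For each of these the ranges met at a single array, and Cacng5 missed the threshold within either treatment (adjusted p 0.0816 on vehicle and 0.0581 on AMI arrays), as Cacng4 did on the AMI arrays (adjusted p 0.128). Cacng2 (stargazin) and Cacng7 differed by -0.02 and -0.14 and did not pass.

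The tissue differences were also computed within each treatment, on 3 arrays against 3. On the vehicle arrays 5 members were higher in the hippocampus, against 11.8% of genes, and 4 in the cortex, against 8.90%. On the AMI arrays the counts were 6, against 14.7%, and 3, against 11.6%. Scn3b, Cacna1h, Cacng8 and Cacnb2 were higher in the hippocampus and Scn4b, Cacng3 and Cacnb4 in the cortex under both treatments. The scale of the arrays mattered for the balance of directions. Quantile normalization and neqc gave the same 14 members, whereas median centring, which shifted the median of all tested genes by 0.18 towards the hippocampus, gave 12 members higher in the hippocampus, against 35.1% of genes, and 3 in the cortex, against 5.51%. The hippocampal share of the called members then was 80% in place of 64.3%, beside 86.4% over all called genes. Under it Scn1a, Scn2b and Cacna2d3 joined the hippocampal side, Scn2b with a difference of 0.40, and Cacnb4 (-0.42) and Cacng5 (-0.18) no longer passed.

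Where a gene had further tested probes, these did not always share the result of the chosen probe. For Scn3b, the probes starting at bases 802 and 1517 of the same annotated transcript also passed in the same direction, with smaller differences. These were 0.23 (SE 0.07, adjusted p 0.0145 by limma) and 0.32 (SE 0.10, adjusted p 0.0228), against 1.05 for the chosen probe at base 3188. The probe ILMN_2451346, annotated to another transcript record of Scn3b, differed by -0.02 (SE 0.09, adjusted p 0.853 by limma). The size of the Scn3b difference thus varied widely between its 4 probes on the same arrays. The second probe of Cacnb2, detected on 3 arrays of each tissue, differed by -0.05 (SE 0.08, adjusted p 0.669), and the other 3 of Cacnb3 by 0.06 to 0.18 without passing. Cacng3 (-1.45 and -1.27), Cacng5 (-0.41 and -0.45), Cacnb4 (-0.88 and -0.40) and Cacnb1 (0.31 and 0.26) passed with both tested probes. A second probe of Cacna1b passed (-0.28, SE 0.08, adjusted p 0.011) where the chosen probe did not. The chosen probe is by rule the brightest of its gene. The other probes of Scn3b had mean signals of 101 to 116 against 494, and that of Cacnb2 had 85.0 against 185, without subtraction of background. The part of signal in these disagreements was not tested.

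**Figure D3:**
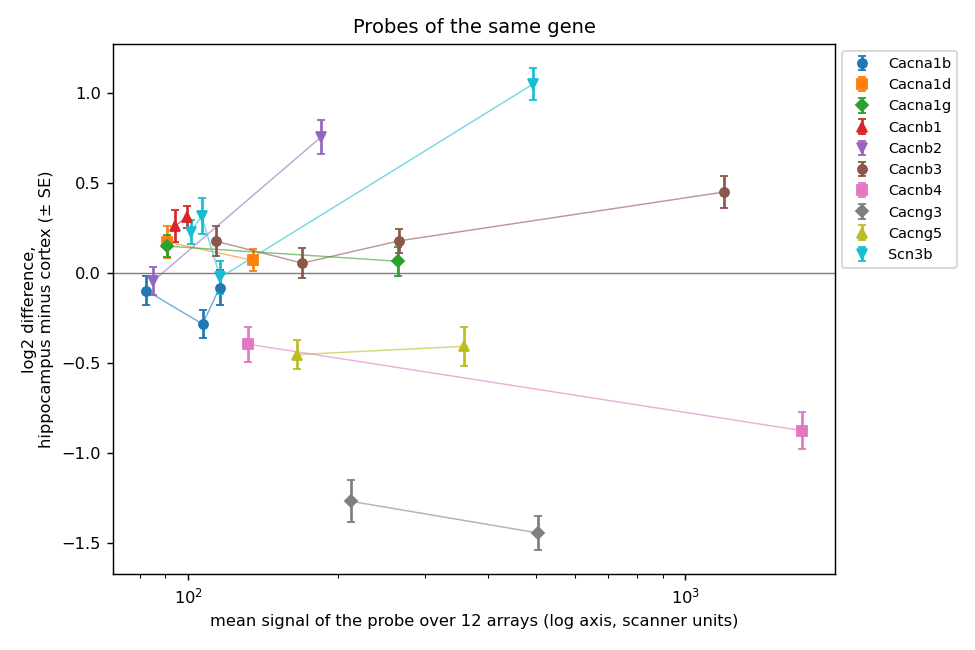
Difference in log2 level between hippocampus and cortex (y axis, with SE) against the mean signal of the probe over 12 arrays (x axis, log scale) for genes with several tested probes, joined by gene. The 2 probes of Cacng3 and the 2 of Cacng5 lie at similar heights, while the brightest probe of Scn3b, at 1.05, stands apart from its other 3.

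Markers of striatum were mostly higher in the cortex, as Scn4b was. Of 8 striatal markers on the array, all were detected and 7 were higher in the cortex than in the hippocampus. Their summed level was 3691 to 6064 in the cortical samples and 1247 to 1705 in the hippocampal ones, in normalized signal units. Across the cortical arrays the sum was also lower with AMI (5265, 3691 and 5035) than with vehicle (5793, 5538 and 6064), without overlap. Within these groups the sum and Scn4b did not share an order. Vehicle replicate 3 had the highest sum and the lowest Scn4b level of the vehicle arrays (3.14). AMI replicate 2 had the lowest sum, with Scn4b at 3.05 between the other AMI arrays (3.08 and 3.02). The part of striatal tissue in the Scn4b values was not tested. Of 10 interneuron markers, 3 were higher in the cortex and 1 in the hippocampus, and the chosen probes of Gad2 and Lhx6 were detected on 0 arrays. Of 11 neuron markers, 5 were higher in the cortex and 0 in the hippocampus, and those of Snap25 and Nefl were never detected. Of 9 microglial markers, 8 were higher in the hippocampus and 0 in the cortex. Over all tested genes 18.9% were higher in the cortex and 24.1% in the hippocampus.

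Partners of these channels were read from a list of 43 genes on the array, of which 32 were tested in the tissue comparison. The list holds binding and anchoring proteins, kinases, phosphatases, calcium sensors and a related leak channel, so not all bind these channels. Of these, 6 were higher in the hippocampus and 10 in the cortex, beside backgrounds of 24.1% and 18.9%. Rem2, a small GTPase that binds calcium channel beta subunits and lowers the current, was higher in the hippocampus by 1.17 (SE 0.13). Freq, neuronal calcium sensor-1, was higher by 0.86 (SE 0.10). Stac, an adaptor of L-type channels, was higher by 0.52 (SE 0.08), with detection on 6 hippocampal arrays but only 1 cortical array. Its cortical level was thus mostly not above background. Stac met the detection filter in the hippocampus alone, so the filter favoured this direction, and it is counted among the 6. All 5 tested active zone tethers, the scaffold proteins that hold calcium channels at release sites, were higher in the cortex. They were Rims1, Rims2, Rims3, Bzrap1 and Cask, with Rims3 at -1.86 (SE 0.17) and Rims1 at -0.78 (SE 0.14). Prkacb, a catalytic subunit of protein kinase A, was also higher in the cortex, at -0.96 (SE 0.17). Under median centring 2 of the 5 tethers passed, and the partners divided 16 to 3 in favour of the hippocampus, beside the 86.4% of called genes on that side.

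The second question was whether AMI changed these genes in either tissue. In the hippocampus, 0 of 24 members reached an adjusted p under 0.05 by limma (smallest adjusted p 0.9996), as did 0% of 9933 tested genes. At an unadjusted p under 0.05 there were also 0 members, against 2.47% of genes. The same held for the study's cutoffs of an absolute z ratio of at least 1.5 with a p of at most 0.05, applied without its false discovery rate, against 2.47% of genes. The z ratio removed none of the 245 genes under that limma p, so it added no second test. At these cutoffs an unpaired t-test, which the study names for its general statistics, also gave 0 members. The difference, AMI minus vehicle, was above 0 for 15 of 24 members (62.5%), beside 53.8% of genes. With 3 arrays against 3, no exact permutation p can fall below 0.1, the value when groups do not overlap. The groups were apart in this way for 2 members (8.33%), against 8.01% of genes, namely Cacna1d, higher with AMI by 0.12 (SE 0.09, p 0.227), and Cacna2d3, lower at -0.10 (SE 0.09, p 0.264), both chosen after their values were seen.

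The lowest hippocampal p-value was that of Scn2b. Its levels were 2.87, 2.63 and 2.48 with AMI and 2.98, 2.89 and 2.78 with vehicle, and the groups overlapped at AMI replicate 1. The difference was -0.22 (SE 0.12, limma p 0.0955). Cacng3 had levels of 0.81, 1.23 and 1.21 with AMI and 0.61, 0.96 and 1.03 with vehicle, and Cacng8 had 0.14, 0.82 and 0.60 against 0.16, 0.39 and 0.33. For both, replicate 1 was the lowest array of its group under either treatment. The differences were 0.22 for Cacng3 (SE 0.15, limma p 0.198) and 0.22 for Cacng8 (SE 0.17, limma p 0.220). Single arrays moved these values. Cacng3 became 0.086 without vehicle replicate 1 and 0.35 without AMI replicate 1, Cacng8 became 0.071 without AMI replicate 2 and 0.41 without AMI replicate 1, and Scn2b became -0.13 without AMI replicate 3. With the replicate number as a block, Cacng3 (limma p 0.0195) and Scn2b (limma p 0.0213) passed the z ratio and p cutoffs, both with an adjusted p of 0.609, beside 8.61% of genes. The paired differences of Cacng3 were 0.20, 0.27 and 0.18 and those of Scn2b -0.11, -0.26 and -0.30. The sign was shared by all 3 pairs for 8 of 24 members, beside 32.2% of genes. Without AMI replicate 1, Cacng3, Cacng8 and Scn2b passed the cutoffs, as 7.41% of genes did.

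In the cortex, too, 0 of 24 members reached an adjusted p under 0.05 by limma (smallest adjusted p 0.756), as did 0% of 9798 genes. At an unadjusted p under 0.05, 4 members (16.7%) passed, against 5.30% of genes. The same 4 passed the z ratio and p cutoffs, but the z ratio removed none of these 519 genes and so added no second test. Cacng4 and Cacna1h were lower with AMI and Cacng7 and Scn1a higher. The groups did not overlap for 5 members (20.8%), against 11.0% of genes, these being Cacna1h, Cacng4 and Scn4b, lower with AMI, and Cacng7 and Scn2b, higher. The difference was above 0 for 11 members (45.8%), beside 54.2% of genes.

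**Figure D4:**
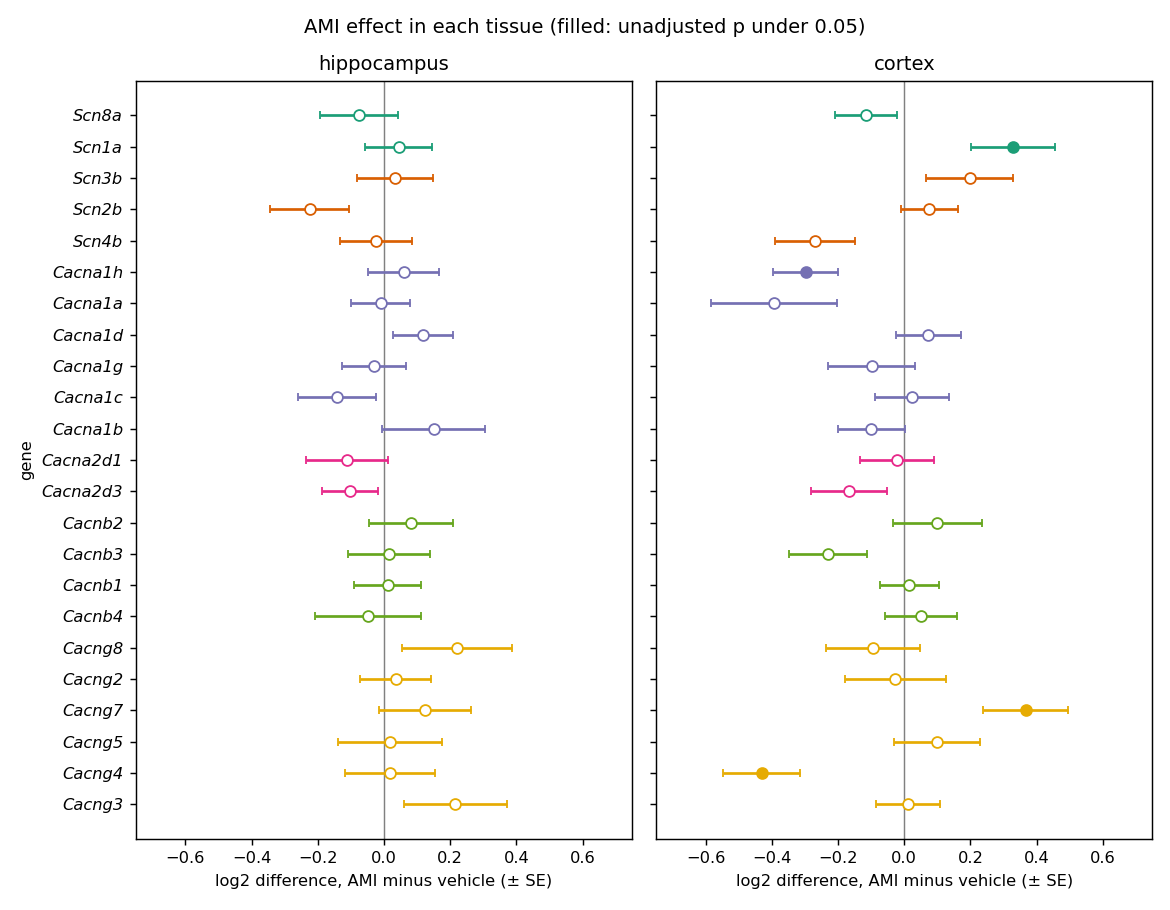
Difference in log2 level between AMI and vehicle (x axis, with SE) in the hippocampus and in the cortex for the tested channel genes reported here (y axis), in the family colours of the tissue plot and filled where the unadjusted limma p was under 0.05. No point is filled in the hippocampus, and 4 are filled in the cortex, Scn1a and Cacng7 to the right of 0 and Cacna1h and Cacng4 to the left.

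Cacng4, a TARP also expressed by glia, had cortical levels of 0.34, 0.01 and 0.15 with AMI and 0.47, 0.63 and 0.69 with vehicle. Every AMI array was below every vehicle array, with a difference of -0.43 (SE 0.12, limma p 0.00528, adjusted p 0.756). Cacna1h had levels of 2.42, 2.37 and 2.39 with AMI and 2.56, 2.79 and 2.72 with vehicle. The AMI arrays lay close together below the vehicle arrays, and the difference was -0.30 (SE 0.10, limma p 0.0143). The study itself listed Cacna1h among the genes changed on these cortical arrays, so this value is not independent of that listing. In the hippocampus Cacna1h had levels of 3.62, 3.47 and 3.52 with AMI and 3.58, 3.30 and 3.54 with vehicle. Those groups overlapped, with a difference of 0.06 (SE 0.11, limma p 0.591) that turned to -0.027 without vehicle replicate 2.

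Cacng7, a TARP of a second type, had cortical levels of 0.04, 0.24 and 0.15 with AMI and -0.13, -0.48 and -0.06 with vehicle. The groups did not overlap, and vehicle replicate 2 was the farthest away. The difference was 0.37 (SE 0.13, limma p 0.0202), and 0.24 without that array. Scn1a, named after its values were seen, had levels of 1.45, 1.57 and 1.30 with AMI and 0.91, 1.11 and 1.31 with vehicle. AMI replicate 3 lay just below vehicle replicate 3, and the difference was 0.33 (SE 0.13, limma p 0.0308). Scn2b had cortical levels of 2.79, 2.78 and 2.80 with AMI and 2.74, 2.72 and 2.68 with vehicle, a difference of 0.08 (SE 0.08, limma p 0.394). Scn4b had 3.08, 3.05 and 3.02 with AMI and 3.56, 3.26 and 3.14 with vehicle, a difference of -0.27 (SE 0.12, limma p 0.0542). Neither passed, although their groups did not overlap, and the Scn4b levels stood beside the lower striatal marker sums of the AMI arrays.

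**Figure D5:**
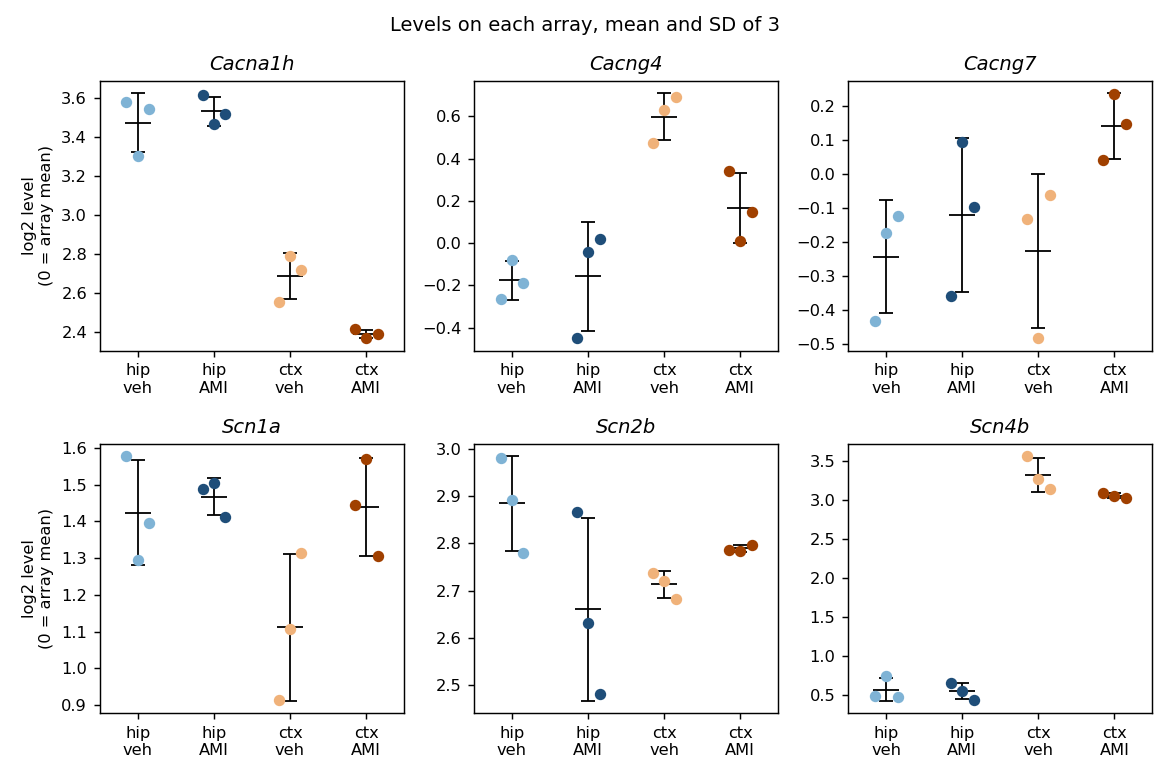
Log2 level (y axis, 0 is the array mean) on each array for 6 channel genes, by tissue (hip, hippocampus, and ctx, cortex) and treatment (veh, vehicle, and AMI), with the mean and SD of 3 arrays in black. In the cortex the AMI points of Cacna1h, Cacng4 and Scn4b lie below all vehicle points, and those of Cacng7 and Scn2b above them.

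Single arrays decided much of the cortical count. Without vehicle replicate 2 only Cacng4 passed the cutoffs, beside 2.66% of genes. Without AMI replicate 2, Cacna1h and Cacng4 passed, beside 4.61% of genes. Under median centring Cacng4 and Cacng7 passed, where the share of genes at these cutoffs was not computed. Without vehicle replicate 3 there were 8 members, beside 13.4% of genes, adding Cacna1a, Cacnb3, Scn3b and Scn4b. Across the 6 fits that left out 1 array each, Cacng4 passed in all and Cacna1h in 5. With the replicate number as a block 6 members passed in the cortex, against 7.52% of genes, and all 3 numbered pairs shared a sign for 10 of 24 members, beside 28.8% of genes. The second probe of Cacnb4, chosen after its values were seen, had cortical levels of 0.48, 0.19 and 0.23 with AMI and -0.43, -0.09 and -0.05 with vehicle. Its difference was 0.49 (SE 0.13, limma p 0.00581, adjusted p 0.756), whereas the chosen probe differed by 0.05 (SE 0.11). Among the partners, 0 of 32 hippocampal and 5 of 31 cortical tests had an unadjusted p under 0.05, beside 2.47% and 5.30% of genes, and none passed adjustment. The lowest p-values were those of Bzrap1, a tether, at -0.48 (SE 0.13, limma p 0.00576) and Fgf12, which binds sodium channel tails, at 0.25 (SE 0.09, limma p 0.0243) in the cortex. In the hippocampus they were those of Nfasc, a node and initial segment adhesion protein, at -0.20 (SE 0.10, limma p 0.0816) and Rims2 at 0.16 (SE 0.11, limma p 0.169).

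The difference between the AMI effects in the 2 tissues was tested as the tissue by treatment interaction over all 12 arrays. By limma, 0 of 24 members reached an adjusted p under 0.05 (smallest adjusted p 0.9999), as did 0% of 9464 genes. At an unadjusted p under 0.05 there were 2 members (8.33%), against 3.11% of genes. The effect in the hippocampus minus that in the cortex was 0.36 for Cacna1h (SE 0.14, limma p 0.0245) and 0.45 for Cacng4 (SE 0.19, limma p 0.0307). Scn2b followed at -0.30 (SE 0.14, limma p 0.0581), with a lower mean with AMI in the hippocampus and a higher mean in the cortex.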

How the data were processed

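Each of the 12 arrays was assigned to a tissue and treatment by its labels. The deposited values were mean bead signals, a linear intensity that the authors had neither normalized nor corrected for background. Beside each signal the authors deposited the detection p-value of the scanner software. Per the labels, BeadStudio 3.4 was used for the hippocampus and GenomeStudio 1.1.1 for the cortex. Genome build of the probe annotation is not given in the sources used here. Precision is limited by 3 arrays per group.

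Signals were taken to log2 without an added constant, centred on the array mean and divided by the array SD (z normalization, after the study's methods), and the result was rescaled with 1.60, the average SD over arrays. Probes entered a test when detected (p up to 0.05) in a tissue on 3 or more of its 6 arrays, of either tissue for the tissue difference and of both for the interaction. limma 3.58.1 in R 4.3.3 (lmFit, eBayes, two-sided) gave Benjamini-Hochberg adjusted p-values over all tested probes, with a threshold of 0.05. Treatments were compared on the 6 arrays of a tissue, and tissues and the interaction on all 12 arrays with 4 group means. The z ratio scales the difference of group means by its SD across probes. Backgrounds count 1 probe per gene. Counts cover all members, but values of some single members are not reported here. The fits were tested on simulated data. Summed marker levels are sums of the normalized values returned to the linear scale.

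Replicate numbers were checked by correlating deviations from group means. Same-numbered AMI and vehicle arrays correlated at 0.61, 0.30 and 0.29 in the hippocampus, and unlike-numbered ones at -0.47 to 0.28. Only the arrays numbered 1 thus stood apart. They also had the lowest median signal of detected probes in their groups, 162 with AMI and 188 with vehicle, against 262 to 330 on the others. The block treats all numbers as pairs, which the labels do not state. Python 3.11.15 with numpy 2.4.6, pandas 2.3.3 and matplotlib 3.10.9 served for tables and plots, with statmod 1.5.0 behind the random block.

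Levels are given for the members with the largest called tissue differences (up to 8 in each direction, as lowest, median and highest of 6 arrays) and, array by array, for the 3 lowest p-values per tissue between AMI and vehicle and in the interaction, and for Cacna1h. Scn8a was added as the remaining called member. Of the partners, the 3 largest called tissue differences in each direction and the 2 lowest AMI p-values per tissue are named. The members, the lists and these rules were chosen with earlier results of these data known. Alternatives were median centring, quantile normalization, neqc (offset 16), no detection filter, a stricter detection filter, eBayes with trend and robust variances, the probe with the lowest p, an unpaired t-test, all 12 arrays in a single fit, replicate and random blocks, the arrays of a single treatment, and leaving out each array.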

Additional observations from a re-analysis of the deposited data

How the results depend on the processing

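The 9 members higher in the hippocampus became 5 with the vehicle arrays alone, beside 11.8% of genes. The 5 higher in the cortex became 3 under median centring, beside 5.51%, and 3 with the AMI arrays alone, beside 11.6%. Over all alternatives except leaving out arrays, the counts ranged from 5 to 12 in the hippocampus and from 3 to 7 in the cortex. Leaving out each array gave 9 to 10 and 5 to 5. In the hippocampus the count at the z ratio and p cutoffs was 2 with the replicate block, beside 8.61% of genes. It was 1 with all 12 arrays in a single fit. Leaving out each hippocampal array gave 0 to 3, beside 1.46% to 7.41% of genes, the 3 arising without AMI replicate 1. In the cortex the count was 2 under median centring and 2 by the unpaired t-test. Leaving out each cortical array gave 1 to 8, beside 2.66% to 13.4% of genes. For the single fit, median centring and the t-test, the share of genes at these cutoffs was not computed. The hippocampal difference of Cacna1h became -0.027 without hippocampus vehicle replicate 2, in a range of -0.027 to 0.11 when each array was left out. Counts at an adjusted p under 0.05 between AMI and vehicle, and for the interaction, were 0 under each alternative run. Tissue and interaction counts with the replicate block were 9, 5 and 0. In the cortex the numbers were not taken to pair the arrays (r of -0.06, 0.33 and 0.33). The block there gave 6 members past the cutoffs, beside 7.52% of genes. The cause of these changes was not tested. Signals near background limit Cacna1c, Cacnb1 and other dim members. Cacng8 had cortical signals of 89.4 to 126, and its tissue difference was 1.29 under neqc against 0.86 in the main fit.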
